A study of Mus musculus with 12 samples.

Results

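The genes described here were those for which the wild-type (WT) vas deferens stood apart from all 4 Hox mutant vasa deferentia of the same series. A gene was taken when its log2 value in WT lay at least 1 unit above, or at least 1 unit below, the value in every mutant. Of 31669 genes in each male file, 12598 had the same value in the 5 vas deferens samples and were skipped, which left 19071. WT was higher than all 4 mutants for 225 of them (1.18%) and lower for 200 (1.05%), 425 genes in all. These values chose the genes, so they are given as a description. Each group was 1 sample, made from RNA pooled from 3 animals, so no difference has a replicate check and no test was possible.

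The series measured gene expression by RNA sequencing in 12 samples of mouse reproductive tract, 6 male and 6 female. The mice were of a CD1/129 background and 3 to 7 months old. The 5 vas deferens samples were WT, Hoxa9,10,11-/- (called Hoxa-null below), Hoxd9,10,11-/- (Hoxd-null), Hoxa9,10,11-/-d9,10,11+/- (compound Hoxa-null) and Hoxa9,10,11+/-d9,10,11-/- (compound Hoxd-null). The compound mutants lack both working copies of 1 block of genes and 1 copy of the other block. A WT caudal epididymis and 5 uteri of the same 5 genotypes served as samples that the choice of genes had not used.

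Hox genes encode homeodomain transcription factors that give segments of the body axis and of the genital ducts their identity, and the genes at the posterior end of each cluster act in the most distal segments. In the male, the Wolffian duct forms the epididymis, the vas deferens and the seminal vesicle in that order, and loss of Hoxa10 or Hoxa11 is known to give the vas deferens features of the epididymis. The adult vas deferens is a thick tube of smooth muscle around a pseudostratified epithelium that moves and conditions sperm. In whole tissue, fewer cells of a type and less RNA per cell cannot be told apart.

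The deposited values are centred on each gene, but for many genes the level before centring could be recovered in normalised reads, that is, read numbers after scaling by 1 factor per sample, with a floor of 1. One read was worth 0.704 normalised reads in the WT vas deferens and 0.884 to 1.29 in the 4 mutants, so WT was sequenced deepest. Levels could be read for 187 of the 225 genes higher in WT and for 122 of the 200 genes lower in WT. Of the genes higher in WT, 98 had under 20 normalised reads in their highest sample, and in 50 every mutant was at the floor. Of the genes lower in WT, 20 had under 20 normalised reads, and WT was at the floor in 21. Exact Poisson intervals at 95%, which cover counting error only, were separate between WT and the nearest mutant for 88 of the 187 genes higher in WT and 53 of the 122 genes lower in WT. Among the genes higher in WT that are named below they overlapped for Hoxb13, Lcn6, Ivl, Aqp8, Fgg, Ppyr1, 9930032O22Rik and 2310033E01Rik. Among those lower in WT they overlapped for Usp9y, Crisp4, Dnaic2, Klrb1c, Prrt3, Chga, Ucp3, Cxcl5, Nos1, Hoxa2, Hoxa5, Hoxc9, Dbh and Gm5680. No level could be read for any of 15 smooth muscle genes or of 12 genes of simple epithelium. Their samples could therefore not all be checked against the floor.

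WT did not stand apart from the mutants by more than these did from each other. WT and Hoxd-null differed by at least 1 log2 unit at 1924 genes, fewer than any other pair of the 5 samples. WT and compound Hoxa-null differed at 4765 genes, more than any other pair. Against WT alone, Hoxa-null was at least 1 log2 unit higher for 11.2% of the genes and lower for 9.74%. The shares were 3.97% higher and 6.11% lower for Hoxd-null, 15.5% and 9.47% for compound Hoxa-null, and 8.58% and 6.38% for compound Hoxd-null. The 4 comparisons share the WT sample. WT was sequenced in a lane that held no other vas deferens sample, so lane and genotype cannot be told apart.

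**Figure D1:**
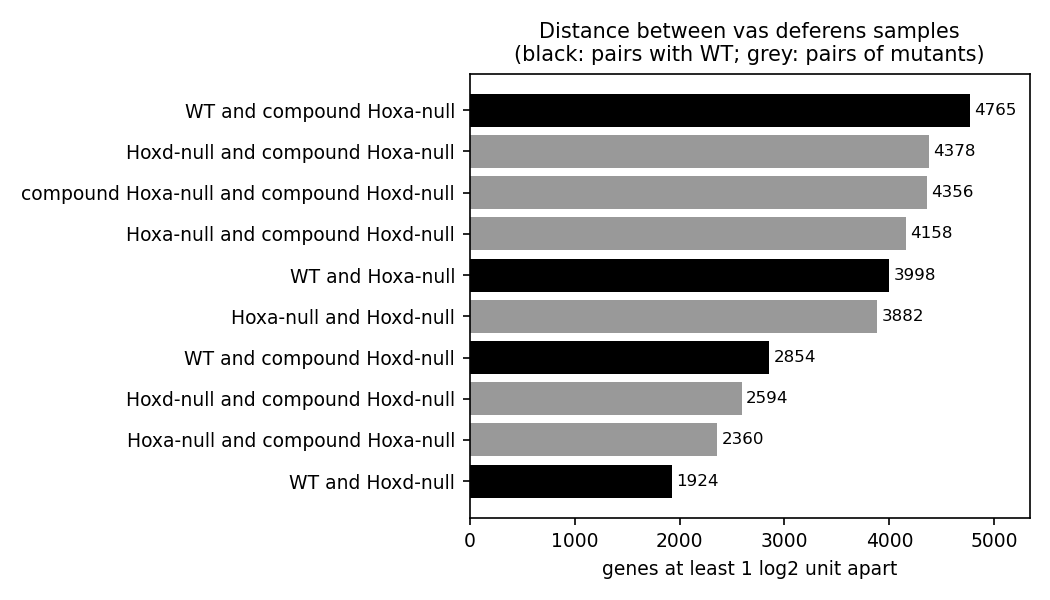
Number of genes at least 1 log2 unit apart (x axis) for each of the 10 pairs of vas deferens samples, with pairs that include WT in black. The pair of WT and Hoxd-null has the fewest genes, 1924, and the pair of WT and compound Hoxa-null the most, 4765.

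The targeted genes were set against the labels, and not all of them followed the labels. Hoxa11 was read at 1088 normalised reads in WT, 974 in Hoxd-null and 611 in compound Hoxd-null, and at 223 in Hoxa-null and 118 in compound Hoxa-null. Hoxd11 was read at 171 normalised reads in WT, 92.9 in Hoxa-null and 62.3 in compound Hoxa-null, against 30.8 in Hoxd-null and 75.7 in compound Hoxd-null. Of the 5 samples, Hoxa11 was lowest in those labelled null for Hoxa, whereas for Hoxd11 compound Hoxd-null lay above compound Hoxa-null. Hoxd9 differed from WT by -1.28 log2 units in Hoxd-null, -1.20 in compound Hoxd-null, 0.69 in Hoxa-null and -0.33 in compound Hoxa-null. Hoxd10 differed from WT by -0.27 in Hoxd-null and 0.49 in compound Hoxd-null, against -0.37 and -0.43 in Hoxa-null and compound Hoxa-null, so the Hoxd pair was not the lowest. Hoxa10 differed by -0.80 and -0.87 in the Hoxa pair and by -0.05 and -0.11 in the Hoxd pair. Hoxa9 was higher in all 4 mutants, at 126 to 313 normalised reads, than in WT at 99.6. The sources used here do not say which exons the reads cover, so reads from a disrupted gene do not bear on its protein.

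Genes made by the prostate and coagulating gland were among those with the widest gaps on the higher side. These glands open beside the vas deferens and secrete proteins of the seminal fluid under androgen control. Of 11 genes listed for them, 4 were in the group, namely Pbsn, Tgm4, Spink3 and Hoxb13, and none was lower in WT. The median over the 11 was 1.74 log2 units above the mean of the mutants, beside -0.02 over all 19071 genes.

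Pbsn, the androgen-regulated secretory protein probasin, was read at 513 normalised reads in WT, 9.03 in Hoxa-null and 2.59 in compound Hoxd-null, and was at the floor in Hoxd-null and compound Hoxa-null. WT was 5.83 log2 units above the nearest mutant, and the WT caudal epididymis was at the floor. Tgm4, the transglutaminase that cross-links proteins of the copulatory plug, could be given only as differences. WT exceeded Hoxa-null by 6.65, compound Hoxa-null by 7.45, Hoxd-null by 8.53 and compound Hoxd-null by 8.76 log2 units. Spink3, a secreted trypsin inhibitor, was read at 32.4 normalised reads in WT and was at the floor in every mutant. Set against 3 reads in the shallowest mutant, it was 8.35-fold higher in WT. Hoxb13, the homeobox gene of the prostate and hindgut, was read at 8.85 normalised reads in WT and at the floor in all 4 mutants and the epididymis. Set against 3 reads in the shallowest mutant, it was 2.28-fold higher in WT, with overlapping Poisson intervals.

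Other genes of the list did not follow the same order. Sbp and Sbpl, genes for spermine-binding proteins of the prostate, were above the floor in Hoxa-null alone. The readable genes of the list summed to 819 normalised reads in WT and to 71.8 to 986 in the mutants, so the summed levels of WT and the mutants overlap. Mmp7, a matrix metalloprotease, was read at 203 in WT, 859 in Hoxa-null and 2288 in the epididymis. Without Mmp7, left out after its values were seen, the list summed to 616 in WT, 127 in Hoxa-null, 8 in Hoxd-null, where all 8 of these genes were at the floor, 76.7 in compound Hoxa-null and 17.6 in compound Hoxd-null, which do not overlap with WT. Pbsn, which the rule chose for its high WT value, made up 513 of the 616 in WT and 9.03 of the 127 in Hoxa-null. The gap between the sums without Mmp7 thus rests mainly on Pbsn. Tgm4, whose level could not be read, is in neither sum. Psca, a surface antigen named for prostate stem cells, was read at 39.4 normalised reads in WT and 1.77 to 5.87 in the mutants, but at 192 in the epididymis. Eapa2, named as a prostatitis antigen, was read at 25.4 in WT and 1 to 2.43 in the mutants. Whether gland tissue was part of the WT pool was not tested.

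The start of Pbsn is shown because it is the most abundant of these genes that could be read. The 250 bases before its start are on the minus strand at chrX:77853501-77853750 of GRCm38.p6, from RefSeq, written 5′ to 3′, and the capitals mark AGAACA, a half-site bound by the androgen receptor, which begins 95 bases before the start.
Pbsn: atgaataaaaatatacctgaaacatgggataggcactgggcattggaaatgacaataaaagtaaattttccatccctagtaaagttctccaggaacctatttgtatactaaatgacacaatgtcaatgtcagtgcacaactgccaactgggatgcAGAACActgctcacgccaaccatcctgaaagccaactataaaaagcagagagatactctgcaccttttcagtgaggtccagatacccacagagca

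Prss29 and Prss28 encode implantation serine proteinases, enzymes secreted by uterine glands, and lie beside each other on chromosome 17, with mm9 starts at 25457228 and 25445591. Prss29 had the widest gap of all 225 genes. It was read at 120 normalised reads in the WT vas deferens, with a Poisson interval of 103 to 140, and was at the floor in all 4 mutants. Set against 3 reads in the shallowest mutant, it was 31.1-fold higher in WT. Prss28 was read at 30.4 in WT, 2.76 in Hoxa-null and the floor in the other 3 mutants. Both were also far higher in the WT uterus than in any mutant uterus. In reads, Prss29 had 171 in the WT vas deferens, 16762 in the WT uterus, 133 in the Hoxa-null uterus and 6 to 8 in the other 3 uteri. Prss28 had 43.2 reads in the WT vas deferens, 6640 in the WT uterus, 30 in the Hoxa-null uterus and at most 1 in the others.

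The WT vas deferens, the WT uterus and the Hoxa-null uterus were sequenced in 1 lane. The other 3 uteri and 3 of the mutant vasa deferentia shared another lane, and compound Hoxd-null was in a later run. For Prss29 the WT vas deferens held 1.02% and the Hoxa-null uterus 0.791% as many reads as the WT uterus, and for Prss28 the shares were 0.651% and 0.452%. Whether reads passed between samples of the lane was not tested. Of 139 genes higher in WT whose levels could be read in both sexes, 4 had at least 50 times as many reads in the WT uterus as in the WT vas deferens, namely Prss28, Prss29, Aqp8 and 9930032O22Rik. Spink3, with 46 reads in the WT vas deferens, is not in this count because its uterine level could not be read. Its mutant uteri differed from the WT uterus by -12.09 to -6.84 log2 units. Pbsn, with 728 reads in the WT vas deferens, had 6 in the WT uterus and 3 in the Hoxa-null uterus. Gsdma had 6114 reads in the WT vas deferens and 7.5 to 40.7 in the 5 uteri.

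The starts of the 2 proteinase genes are shown because the genes are neighbours with the same order of samples. Both are on the plus strand of GRCm38.p6 from RefSeq, Prss28 at chr17:25308396-25308645 and Prss29 at chr17:25318404-25318653. They are identical at 33.6% of positions counted from the start, and their longest shared run is 15 bases. The positions were compared without alignment, so the share is low also for copies that are shifted against each other. The capitals mark TGTTCT, the half-site on the other strand, which is absent from these letters of Prss29.
Prss28: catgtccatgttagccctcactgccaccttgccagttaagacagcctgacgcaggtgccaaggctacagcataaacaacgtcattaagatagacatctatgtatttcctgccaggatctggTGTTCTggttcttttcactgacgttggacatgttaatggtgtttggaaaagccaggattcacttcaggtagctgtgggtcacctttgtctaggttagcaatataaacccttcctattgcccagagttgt
Prss29: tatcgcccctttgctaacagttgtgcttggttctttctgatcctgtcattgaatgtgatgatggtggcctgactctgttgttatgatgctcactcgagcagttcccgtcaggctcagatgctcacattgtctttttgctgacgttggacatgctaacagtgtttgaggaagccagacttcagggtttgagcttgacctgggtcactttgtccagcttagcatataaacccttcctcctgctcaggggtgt

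Some genes of slow and cardiac muscle, picked out after their values were seen and not from a list, were higher in WT. Myl2, the regulatory light chain of slow and ventricular myosin, was read at 41.5 normalised reads in WT and at the floor in every mutant. Set against 3 reads in the shallowest mutant, it was 10.7-fold higher in WT. Tnnc1, the calcium-binding troponin of the same fibres, was read at 52.1 in WT and 1.77 to 6.85 in the mutants. Csrp3, a muscle LIM protein, was read at 54.9 in WT, 9.21 in Hoxa-null and the floor in the other 3.

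Myh7, the slow myosin heavy chain, exceeded the mutants by 3.11 to 5.93 log2 units. The slow troponin gene Tnni1 was read at 55.3 in WT against 9.67 to 15.3 in the mutants, and Myl3 at 11.3 against the floor. Myh7 was the 1 gene of 16 on the skeletal muscle list to meet the rule. Pvalb, a calcium buffer of fast fibres, had another order and was read at 357 in Hoxa-null and 540 in compound Hoxa-null, at 123 in WT, and at 3.91 and 3.88 in Hoxd-null and compound Hoxd-null. The readable skeletal muscle genes summed to 1176 normalised reads in WT and to 525 to 2724 in the mutants. The part of attached skeletal muscle in these values was not tested.

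B lymphocyte genes were also among those higher in WT. Of 8 genes listed for B and plasma cells, 4 met the rule, among them Cd79a, Cd79b and Ms4a1, which are surface proteins of B cells. The list's median was 1.87 log2 units above the mean of the mutants. Cd79a was read at 279 normalised reads in WT, 96.6 in Hoxd-null, 82.7 in compound Hoxd-null, 27.6 in Hoxa-null and 18.2 in compound Hoxa-null. Cd79b followed the same order, from 226 in WT through 94.9 and 74.9 to 30.4 and 17.7.

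In Cd79a and Cd79b the Hoxd pair of mutants lay between WT and the Hoxa pair. WT was above all 4 mutants by some amount in 6 of the 8 genes listed, beside 19.7% of all genes. Pou2af1, a transcriptional coactivator of B cells, was read at 99.5 in WT and 24.9 to 59.7 in the mutants. Mzb1, a protein of the endoplasmic reticulum of B and plasma cells, differed from WT by -1.23 to -0.66 log2 units in the mutants. In Igj and Xbp1 WT lay within the range of the mutants. Igj, the joining chain of secreted antibody, was read at 557 in WT and 536 to 719 in the mutants. Xbp1, a transcription factor of secretory cells, differed from WT by -0.37 to 0.36 log2 units. Pax5, Blk and Fcrla, other genes of B cells picked out after their values were seen, were read at 28.0, 58.3 and 45.6 in WT and at most at 5.87, 28.6 and 18.6 in the mutants.

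A pair of myeloid receptors also appeared among the genes higher in WT. Trem1, an activating receptor of neutrophils and monocytes, was read at 114 normalised reads in WT and 1 to 3.88 in the mutants. Pilra, an inhibitory receptor of myeloid cells, was read at 1761 in WT, 737 in Hoxd-null, 187 in compound Hoxd-null, 116 in compound Hoxa-null and 82.0 in Hoxa-null. No gene of the lists for macrophages, neutrophils or MHC class II met the rule. WT was nevertheless above all 4 mutants by some amount in 5 of 11 macrophage genes and 5 of 6 MHC class II genes, and in 0 of 10 neutrophil genes, beside the 19.7% of all genes. Interferon-induced genes had no member either, but WT was above all 4 mutants by some amount in 14 of 20.

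A few genes of squamous and transitional epithelium were higher in WT. Sprr1a, a cornified envelope protein, was read at 80.3 normalised reads in WT, 26.7 in Hoxa-null and 1.96 to 3.88 in the other mutants. Its neighbour Ivl, involucrin, was read at 11.4 in WT and 1.96 to 2.95 in the mutants. Upk3a, a plaque protein of the urothelium, was read at 29.7 in WT, 1 to 3.08 in the mutants and 8.10 in the epididymis.

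Sprr1a and Ivl were the 2 of 13 basal and squamous genes to meet the rule, and basal keratins were not among them. Krt5 differed from WT by 0.01 to 0.68 log2 units and was higher in all 4 mutants. Gsdma, a pore-forming gasdermin of skin-type epithelium, had the most reads of the 187 genes higher in WT whose level could be read. It was read at 4306 normalised reads in WT, 971 in Hoxa-null, 612 in compound Hoxa-null, 192 in compound Hoxd-null and 98.9 in Hoxd-null, so here the Hoxa pair lay nearer to WT.

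Other abundant genes higher in WT encode secreted and signalling proteins. Defb30, a beta-defensin, was read at 1855 normalised reads in WT, 791 and 738 in the Hoxd pair, and 161 and 74.8 in the Hoxa pair.

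Trpv4, a calcium-permeable channel opened by stretch and warmth, was the most even across mutants of the named genes with the most reads. It was read at 1028 in WT and at 440 in Hoxa-null, 436 in Hoxd-null, 437 in compound Hoxa-null and 370 in compound Hoxd-null. Synpo, an actin-associated protein, was read at 1163 in WT and 280 to 459 in the mutants. Wdr72, a protein of vesicle traffic, was read at 1189 in WT and 74.3 to 350 in the mutants. Rftn1, a lipid raft protein of lymphocytes, and Bcat1, a branched-chain aminotransferase, were read at 768 and 955 in WT and at most at 252 and 343 in the mutants.

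Egln3, a prolyl hydroxylase that acts on hypoxia-inducible factors, was read at 1057 in WT and 153 to 510 in the mutants. It was the 1 gene of 12 hypoxia and glycolysis genes found to meet the rule. Nfil3, a repressor in the circadian clock, was read at 192 in WT and 31.3 to 88.4 in the mutants, and was the 1 of 16 clock genes to do so. Ptprn, a protein of dense-core vesicles, was read at 227 in WT and 8.29 to 20.2 in the mutants. Ttr, the carrier of thyroid hormone, was read at 32.7 in WT and 2.93 to 5.17 in the mutants. Lcn6, an epididymal lipocalin, was read at 5.49 in WT and at the floor elsewhere. Set against 3 reads in the shallowest mutant, it was 1.42-fold higher in WT, with overlapping Poisson intervals.

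**Figure D2:**
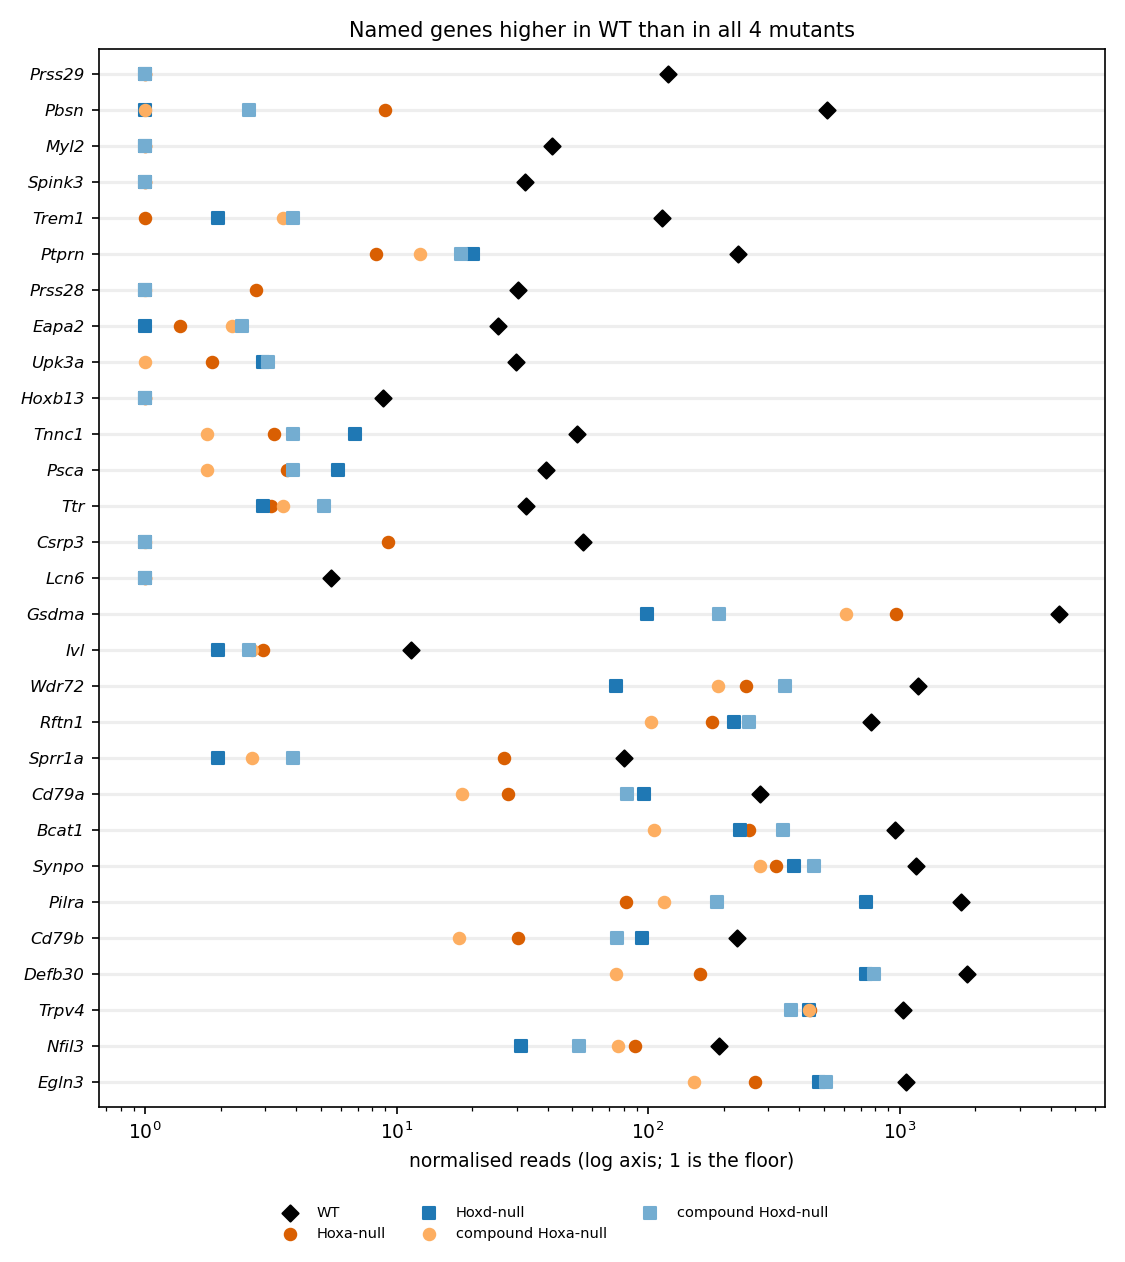
Normalised reads (x axis, log scale, floor at 1) in the 5 vas deferens samples for the named genes higher in WT whose level could be read, ordered by the gap between WT and the nearest mutant. Each point is 1 sample, points at the floor cover each other, and WT (black) lies from 1.05 log2 units (Egln3) to 6.91 log2 units (Prss29) above the nearest mutant.

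The genes lower in WT included products of the epididymal epithelium. Of 24 epididymal secretory genes, of which 22 varied, 3 met the rule in this direction (Crisp4, Rnase9 and Defb15) and 1 in the other (Lcn6), and WT was below all 4 mutants by some amount in 9, beside 18.6% of all genes. Crisp4, a protein that the epididymis adds to sperm, was read at 2.11 normalised reads in WT, 11.7 in Hoxd-null, 15.7 in Hoxa-null, 25.3 in compound Hoxd-null and 43.9 in compound Hoxa-null, and at 1033 in the epididymis. All mutants were above WT, and the epididymis was far above all of them. Rnase9, a ribonuclease-like protein of the epididymis, was higher than in WT by 1.11 log2 units in Hoxd-null, 3.50 in compound Hoxd-null and 5.09 in both Hoxa-null samples, and by 6.08 in the epididymis. Defb15, a beta-defensin, was higher by 1.44, 2.35, 3.70 and 3.76 in Hoxd-null, compound Hoxd-null, Hoxa-null and compound Hoxa-null.

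Spink6, an inhibitor of kallikrein proteases, was read at 7.04 normalised reads in WT, 46.9 in Hoxd-null, 134 in compound Hoxd-null, 592 in Hoxa-null and 690 in compound Hoxa-null. Hsd17b3, the enzyme that makes testosterone from androstenedione, was read at 7.04 in WT, 43.0 in Hoxd-null, 63.5 in compound Hoxd-null, 151 in compound Hoxa-null and 433 in Hoxa-null. Slco1a5, a transporter of organic anions, was read at 39.1 in WT, 87.7 and 112 in the Hoxd pair, 501 and 637 in the Hoxa pair, and 2847 in the epididymis. In each of these the order was WT, Hoxd-null, compound Hoxd-null and then both Hoxa-null samples.

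Pipox, a peroxisomal oxidase, was read at 7.79 in WT, 53.6 in Hoxd-null, 164 in compound Hoxd-null, 264 in Hoxa-null and 284 in compound Hoxa-null. Mep1a, the metalloprotease meprin, was higher than in WT by 2.29 to 6.77 log2 units in the mutants and by 10.79 in the epididymis. Adcy8, an adenylyl cyclase, was read at 57.7 in WT, 129 and 343 in the Hoxd pair, and 988 and 963 in the Hoxa pair. Ido2, a tryptophan-degrading enzyme, was read at 67.6 in WT, 141 and 674 in the Hoxd pair, and 1249 and 1542 in the Hoxa pair. Hephl1, a ferroxidase, was read at 7.75 in WT and 36.1 to 137 in the mutants.

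Foxi1, the transcription factor of the proton-secreting clear cells that acidify the lumen, was read at 51.4 normalised reads in WT, 106 in Hoxd-null, 215 in compound Hoxd-null, 443 in Hoxa-null and 648 in compound Hoxa-null, and at 1565 in the epididymis. It was the 1 of 8 clear cell genes to meet the rule, with a list median of -1.26. The proton pump subunit Atp6v1b1 was read at 18.4 in WT and 21.5 in Hoxd-null, against 143 and 210 in the Hoxa pair and 62.1 in compound Hoxd-null. So the clear cell genes other than Foxi1 did not separate WT from Hoxd-null by 1 log2 unit.

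Muc4, a membrane-bound mucin, was read at 27.5 in WT, 137 and 200 in the Hoxd pair, 254 and 527 in the Hoxa pair, and 100 in the epididymis, which was below every mutant. Avpr2, the vasopressin receptor that acts on water transport, was read at 181 in WT and 469 to 1024 in the mutants. Srcin1, a regulator of Src kinase, was read at 53.5 in WT and 167 to 699 in the mutants. Trank1 was read at 79.8 in WT and 217 to 1847 in the mutants.

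Genes of cilia and of germ cells included Dnaic2, a chain of the outer dynein arm, read at 1.41 normalised reads in WT, 7.76 to 10.1 in 3 mutants and 68.0 in compound Hoxa-null. Actl7b, an actin-like protein of spermatids, was read at 33.1 in WT, 85.6 and 97.1 in the Hoxd pair, 1555 in Hoxa-null and 15017 in compound Hoxa-null. Lrrc34 and Dnajc5b were higher than in WT by 2.22 to 7.62 and by 2.17 to 5.20 log2 units. No gene of the lists for spermatogenic cells or motile cilia met the rule. The readable spermatogenic genes summed to 1100 normalised reads in WT and to 384 to 2450 in the mutants, so these sums overlap.

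Some genes lower in WT belong to hormones and transmitters. Chga, the chromogranin of secretory granules, was at the floor in WT and read at 4.89 in Hoxd-null, 54.3 in compound Hoxd-null, 81.4 in compound Hoxa-null and 147 in Hoxa-null. Set against 3 reads in WT, the lowest mutant was 2.32-fold higher, and the Poisson intervals overlapped. Dbh, the enzyme that makes noradrenaline, was read at 1.41 in WT, 2.93 and 18.1 in the Hoxd pair, and 41.9 and 64.7 in the Hoxa pair.

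Lep, the adipocyte hormone leptin, was read at 48.6 in WT, 121 in Hoxd-null, 178 in Hoxa-null, 408 in compound Hoxd-null and 468 in compound Hoxa-null, and at 35.1 in the epididymis. It was the 1 of 12 adipocyte genes to meet the rule, with a list median of -1.70. Plin1, a coat protein of lipid droplets, was read at 198 in WT and 253 in Hoxd-null, against 1027 in Hoxa-null, 1567 in compound Hoxa-null and 1558 in compound Hoxd-null. Acvr1c, a receptor of the TGF-beta family that adipocytes express, was picked out after its values were seen. It was read at 6.34 in WT, 24.5 in Hoxd-null and 120 to 173 in the other mutants. The part of attached fat in these values was not tested.

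Myoc, myocilin, differed from the genes above in that the Hoxd pair was highest. It was read at 70.3 normalised reads in WT, 253 and 298 in the Hoxa pair, 556 in compound Hoxd-null and 662 in Hoxd-null, and at 54.0 in the epididymis. Tmc1, a mechanotransduction channel of hair cells, was read at 2.82 in WT and evenly at 22.0 to 35.4 in the mutants. Pld5 was higher than in WT by 3.91 to 6.31 log2 units. Timp4, an inhibitor of metalloproteases, was read at 20.4 in WT and 46.3 to 112 in the mutants. Prrt3, Klrb1c and Cxcl5 were read at 1 to 1.41 normalised reads in WT and 3.88 to 37.8 in the mutants. Klrb1c is a receptor of natural killer cells and Cxcl5 a chemokine for neutrophils, and each was the 1 gene of its list to meet the rule. The list medians had the other sign, with WT 0.41 (T and natural killer cells) and 0.50 (chemokines) log2 units above the mean of the mutants. WT was above all 4 mutants by some amount in 2 of 11 and 7 of 18 of their genes.

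**Figure D3:**
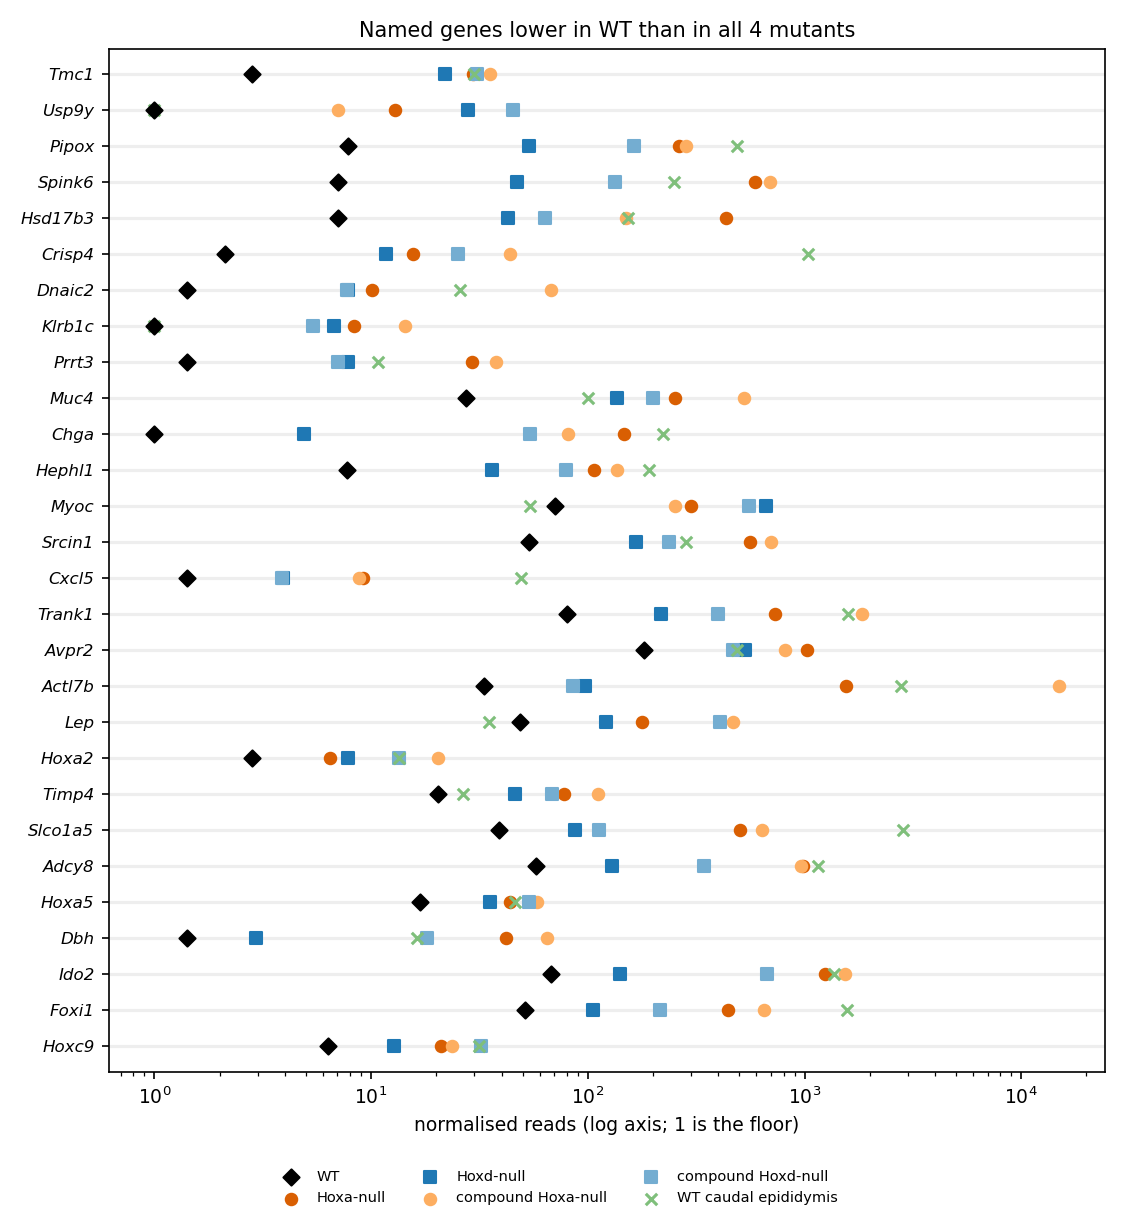
Normalised reads (x axis, log scale, floor at 1) in the 5 vas deferens samples and the WT caudal epididymis for the named genes lower in WT whose level could be read, ordered by the gap between WT and the nearest mutant. Each point is 1 sample, WT (black) lies from 1 log2 unit (Hoxc9) to 2.97 log2 units (Tmc1) below the nearest mutant, and the epididymis (crosses) ranges from the floor in Usp9y to 2847 in Slco1a5.

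Among Hox genes, Hoxa2, Hoxa5 and Hoxc9 met the rule in this direction and Hoxb13 in the other, and WT was below all 4 mutants by some amount in 19 of the 36 Hox genes that varied, beside 18.6% of all genes. With a pseudocount of 5 normalised reads Hoxa2, Hoxa5 and Hoxc9 no longer met the rule. Hoxa5 was read at 16.9 normalised reads in WT, 43.8 in Hoxa-null, 35.3 in Hoxd-null, 58.4 in compound Hoxa-null and 53.5 in compound Hoxd-null. Hoxa2 was read at 2.82 in WT and 6.45, 7.83, 20.3 and 13.5 in the mutants in the same order. Hoxc9 was read at 6.34 in WT and 21.0, 12.7, 23.6 and 32.3.

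Hoxa2 and Hoxa5 lie on chromosome 6, with mm9 starts at 52112510 and 52151753, beside the mutated block that begins with Hoxa9 at 52174053. Both were higher also in Hoxd-null, in which the Hoxa block is not mutated. Tbx5, a T-box factor of the limb and heart on another chromosome, was higher than in WT by 1.10 log2 units in Hoxa-null, 1.78 in Hoxd-null, 1.99 in compound Hoxa-null and 2.87 in compound Hoxd-null, and by 3.93 in the epididymis. It was the 1 of 28 transcription factors of the urogenital ducts to meet the rule.

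Sex chromosomes carried 2 further kinds of genes lower in WT. Usp9y, a deubiquitinase encoded on the Y chromosome, was at the floor in WT and in the WT epididymis, and read at 12.9 normalised reads in Hoxa-null, 27.9 in Hoxd-null, 7.07 in compound Hoxa-null and 45.2 in compound Hoxd-null. Set against 3 reads in WT, the lowest mutant was 3.35-fold higher, and the Poisson intervals overlapped. It was 1 of 9 Y-linked genes that varied. The X chromosome carried 15 of the genes lower in WT, 1.82% of its 822 genes that varied, beside 1.05% of all genes. It carried 3 of the genes higher in WT, 0.365% beside 1.18%. The shares of single autosomes ranged from 0.464% to 1.55% for genes lower in WT and from 0.546% to 1.79% for genes higher in WT.

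Among those 15 were Xlr3a, Xlr3b and Xlr3c, lymphocyte-regulated genes that lie close together on the X chromosome with mm9 starts from 70331634 to 70499879. Such near copies can share reads, so their values are not independent. Xlr3b was higher than in WT by 1.43 in Hoxa-null, 1.30 in Hoxd-null, 1.21 in compound Hoxa-null and 1.15 in compound Hoxd-null, on the log2 scale, and differed from it by -0.08 in the epididymis. Xlr3a and Xlr3c were higher by 1.02 to 1.43 in the mutants, and the epididymis differed from WT by -0.03 and -0.09. So in all 3 genes the mutants lay within 0.40 log2 units of each other and both WT tissues of the male lay within 0.09 log2 units of each other.

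The Xlr3 starts are shown because the 3 copies are alike in sequence as well as in values. Each line is the 250 bases before the start, from RefSeq on GRCm38.p6: Xlr3a on the minus strand at chrX:73097096-73097345, Xlr3b on the plus strand at chrX:73191929-73192178 and Xlr3c on the minus strand at chrX:73265391-73265640. Capitals mark TGATTTAT, a motif bound by Pbx and Hox proteins together, and AGAACA in Xlr3b and Xlr3c. TGATTTAT begins 32, 76 and 96 bases before the start in Xlr3a, Xlr3b and Xlr3c. Xlr3b and Xlr3c share a run of 119 bases, and Xlr3a shares 58 with each. Compared by position from the start without alignment, the pairs of copies are identical at 22.0% to 25.2% of positions.
Xlr3a: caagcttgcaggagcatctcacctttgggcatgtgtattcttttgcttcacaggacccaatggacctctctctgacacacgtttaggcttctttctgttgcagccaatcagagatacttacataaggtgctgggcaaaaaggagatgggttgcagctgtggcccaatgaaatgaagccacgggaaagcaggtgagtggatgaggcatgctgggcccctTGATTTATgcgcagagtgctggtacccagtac
Xlr3b: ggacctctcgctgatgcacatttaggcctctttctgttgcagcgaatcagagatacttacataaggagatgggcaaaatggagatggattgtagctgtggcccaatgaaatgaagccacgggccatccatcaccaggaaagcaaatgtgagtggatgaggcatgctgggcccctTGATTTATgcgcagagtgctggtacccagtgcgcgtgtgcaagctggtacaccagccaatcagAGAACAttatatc
Xlr3c: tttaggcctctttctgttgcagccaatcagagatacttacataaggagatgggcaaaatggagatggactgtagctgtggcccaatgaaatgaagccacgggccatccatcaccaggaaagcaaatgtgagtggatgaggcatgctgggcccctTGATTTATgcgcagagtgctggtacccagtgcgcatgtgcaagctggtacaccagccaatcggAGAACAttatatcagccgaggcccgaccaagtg

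The motif searches covered 300 bases around each start, on both strands, for 154 of the 225 genes higher in WT and 128 of the 200 lower in WT that matched the RefSeq table. TTTATGG, a site of posterior Hox proteins, was in 2.75% of all 32851 promoters, 2.14% of those of genes higher in WT and 1.27% of those lower in WT. TGATTTAT was in 0.977%, 0.535% and 3.18%, and 3 of the 5 matches among genes lower in WT were the Xlr3 copies. AGAACA was in 19.0%, 21.4% and 23.6%. A match describes letters only.

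How evenly the 4 mutants differed from WT varied between the groups. Among genes higher in WT, the mutants lay within 1 log2 unit of each other in 101 of 225 (44.9%), including the 50 in which all 4 were at the floor. Among genes lower in WT they did so in 38 of 200 (19.0%). The mutant nearest to WT was Hoxd-null for 118 of the 200 genes lower in WT, compound Hoxd-null for 40, Hoxa-null for 30 and compound Hoxa-null for 12. For genes higher in WT it was compound Hoxd-null for 72, Hoxd-null for 62, Hoxa-null for 26 and compound Hoxa-null for 15, and 50 were tied.

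Among genes lower in WT, both Hoxa-null samples were at least 1 log2 unit above both Hoxd-null samples in 44, and the reverse held in 2. Among genes higher in WT the Hoxd pair was above the Hoxa pair in 26 and below it in 3. The median difference from WT in genes lower in WT was 1.55 log2 units in Hoxd-null, 2.20 in compound Hoxd-null, 2.48 in Hoxa-null and 2.87 in compound Hoxa-null. WT and Hoxd-null are also the closest pair over all genes. The counts by mutant in this and the preceding paragraph were not made over all genes. They are therefore not read as a trait of the genes of the rule. Without the Hoxd-null sample the rule took 369 genes higher and 678 lower in WT, and without compound Hoxd-null 389 and 312.

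**Figure D4:**
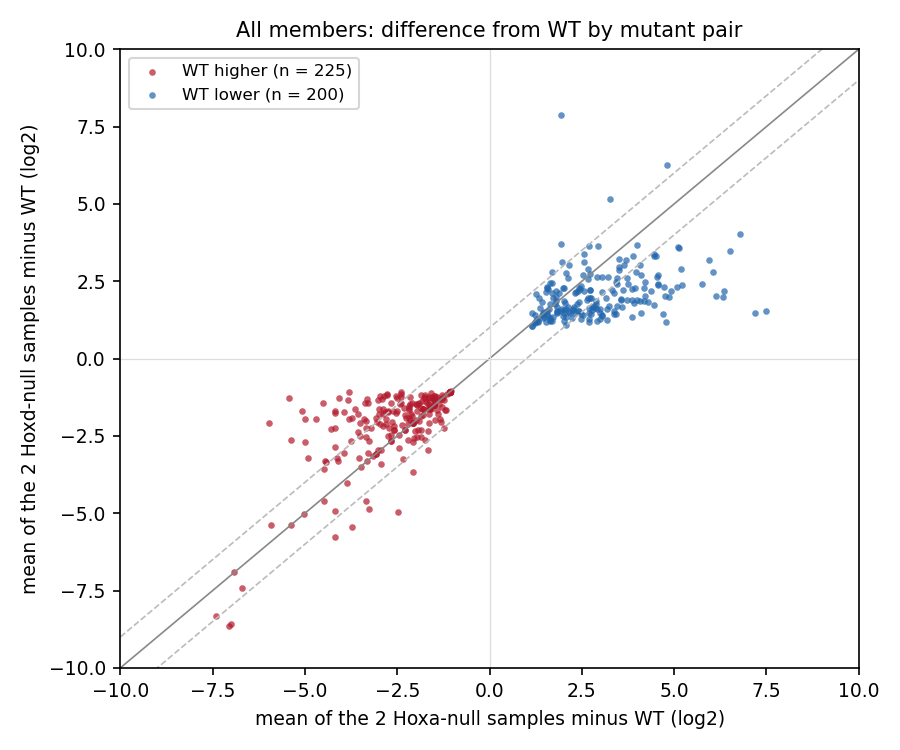
Mean log2 difference from WT of Hoxa-null and compound Hoxa-null (x axis) and of Hoxd-null and compound Hoxd-null (y axis) for the 225 genes higher in WT (red) and the 200 lower in WT (blue). Each point is 1 gene, the solid line marks equal differences and the dashed lines 1 log2 unit to either side, and more blue points lie below the lower dashed line than above the upper one.

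The WT caudal epididymis, which the rule did not use, comes from WT mice and from another segment of the same duct. It was at least 1 log2 unit above all 4 mutants for 30 of the 225 genes higher in WT (13.3%), beside 6.41% of all genes. For 16 others of the 225 (7.11%) it was at least 1 log2 unit below all 4, beside 3.89% of all genes. It was at least 1 log2 unit below all 4 for 39 of the 200 genes lower in WT (19.5%), beside 3.89% of all genes. For 36 other genes lower in WT (18.0%) it was at least 1 log2 unit above all 4 mutants, that is, on the far side from WT. On both sides of the rule the epididymis was thus beyond the mutants in both directions. Against the WT vas deferens it was at least 1 log2 unit lower for 178 of the 225 genes (79.1%), beside 13.4% of all genes. It was at least 1 log2 unit higher for 145 of the 200 (72.5%), beside 17.3%. The WT and mutant values in these counts are those the rule used, so the shares partly follow from the choice of genes.

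Among the 30 genes, Aldh3a1, an aldehyde dehydrogenase, was read at 121 normalised reads in the WT vas deferens, 15 to 38.8 in the mutants and 343 in the epididymis. Cyp1a1, a cytochrome P450 induced through the aryl hydrocarbon receptor, was read at 170, at 19.6 to 36.2 and at 95.9. Among the 39 genes, Acvr1c was read at 6.75 in the epididymis and Ucp3, an uncoupling protein of mitochondria, at 1.35, against 5.87 to 36.2 in the mutants and 1.41 in the WT vas deferens. Among the 36 genes, Crisp4, Slco1a5, Foxi1 and Mep1a had the high epididymal values given above. These examples were picked out after their values were seen.

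**Figure D5:**
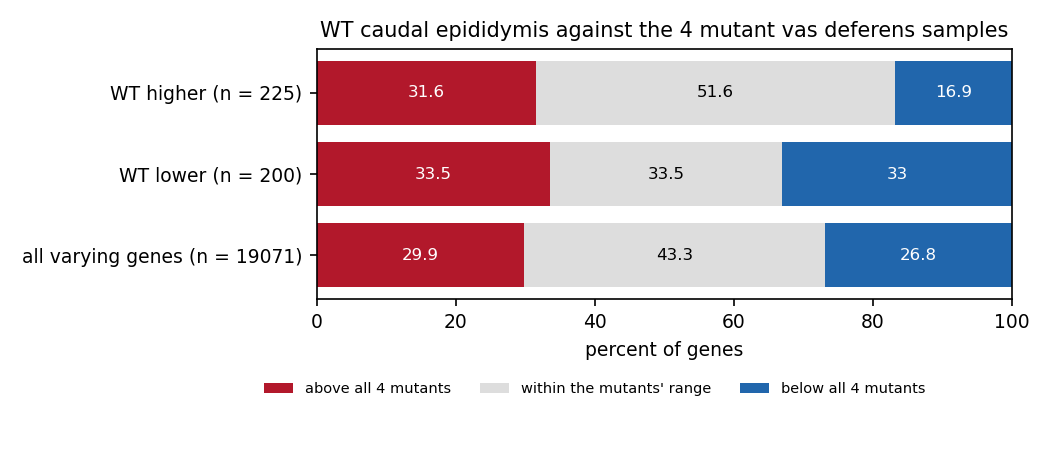
Share of genes (x axis, percent) for which the WT caudal epididymis lay above, within or below the range of the 4 mutant vas deferens samples, for genes higher in WT, lower in WT and all genes that varied. It lay below all 4 mutants for 33.0% of the genes lower in WT and 26.8% of all genes, and above all 4 for 31.6% of the genes higher in WT and 29.9% of all genes. The mutant values are those the rule used.

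In the uterus, the same rule took 321 of 18697 genes as higher in WT (1.72%) and 237 as lower (1.27%). Genes higher in WT in both organs numbered 12, which is 5.33% of the vas deferens genes and 3.74% of the uterine ones. Genes lower in WT in both numbered 3, which is 1.5% and 1.27%. Genes higher in the WT vas deferens and lower in the WT uterus numbered 11, 4.89% and 4.64%, and the reverse held for 9, 4.5% and 2.8%. The 2 organs come from mice of different sex, and the male and female values were centred separately.

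The 12 genes were Prss29, Prss28, Pbsn, Spink3, Ttr, Krt23, Agxt2, Defb30, Aqp8, Ppyr1, Fgg and 2310033E01Rik. As given above, the WT vas deferens and the WT uterus were sequenced in the same lane. Pbsn, Agxt2, Fgg and Ppyr1 had only 6, 4.84, 4.26 and 10 reads in the WT uterus. Krt23, an epithelial keratin, was read at 181 normalised reads in the WT vas deferens and 11.5 to 33.6 in the mutants, and at 1278 in the WT uterus and 74 to 375 in the mutant uteri. Spink3 exceeded the nearest mutant by 5.02 log2 units in the vas deferens and 6.84 in the uterus. The 3 genes lower in WT in both organs were Hoxc9, Gm5680 and Trim43a.

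Among genes with a usable symbol and a readable level of at least 20 normalised reads in the highest sample, those just inside the threshold on the higher side were Blk, Cyp4f18 and Egln3, with gaps of 1.03, 1.03 and 1.05 log2 units, and those just outside were Cck, Adamdec1 and Gria4, at 0.99, 0.98 and 0.95. On the lower side Nos1, Hoxc9 and Dmrt2 were inside at 1.0, 1.0 and 1.01, and Adh6a, Ccdc87 and Muc5b outside at 0.98, 0.97 and 0.97.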

How the data were processed

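RNA sequencing of 12 mouse samples was used, each 1 pool of 3 animals. Per the labels' protocols, the RNeasy Mini kit was used for total RNA and TruSeq reagents for the libraries. TopHat and the build mm9 are named per the submitters' processing notes, while the tool that counted reads and the scaling method are each not given in the sources used here. The authors deposited log2 values, 1 per gene and sample, whose median over the 6 samples of a sex is 0 for every gene.

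The spacing of low values showed read numbers scaled by 1 factor per sample and raised to a floor of 1. From it the level of a gene before centring was recovered, in normalised reads. Reads count in parts of 1/50, and the part a gene's values step in was taken where its posterior was at least 0.9. Checked on genes of known level, 356 of 371 levels were right (96.0%). A wrong level moves all samples of a gene by 1 factor and leaves differences unchanged. Levels above the range of the search, or with an uncertain part, could not be read, and such genes are given as differences of the deposited log2 values. Depth per sample is given as what 1 read is worth. The female samples were treated alike.

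Genes were matched by Gene ID. The rule, the gene lists and the groups were chosen with earlier results of these data known. Genes named were, on each side and with a usable symbol and at least 20 normalised reads where readable, the 15 with the widest gap, the 10 with the most reads and every gene of the rule that is in 1 of 44 lists. Hoxb13, Lcn6, Ivl, Klrb1c and Cxcl5, from the lists, are under that minimum and were kept after their values were seen. Some genes that the rule takes are not reported here. Promoters came from the RefSeq table for GRCm38.p6. The steps were tested on simulated data. Python 3.11.15, numpy 2.4.6, pandas 2.3.3 and scipy 1.17.1 were used.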

Additional observations from a re-analysis of the deposited data

Results flagged for a closer look

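For 8 genes every mutant lay on one side of WT in the vas deferens and on the other side in the uterus, by at least 1 log2 unit in both organs. They are the genes with a usable symbol and at least 20 normalised reads, where readable, of 20 that met both rules in opposite directions. The difference between the organs was not tested, with 1 sample per group. Values below are the nearest mutant minus WT on the log2 scale. Fam151a was -2.02 in the vas deferens and 1.74 in the uterus. Ms4a1, a B cell surface protein, was -1.56 and 1.59. Aqp3, a water and glycerol channel, was -1.23 and 1.42. Tmem229a was -1.16 and 1.28. In the other direction, Prrt3 was 2.32 in the vas deferens and -3.86 in the uterus. Cnksr2, a scaffold protein of Ras signalling, was 1.17 and -1.30. Ptpro, a receptor tyrosine phosphatase, was 1.16 and -1.18. Nos1, the neuronal nitric oxide synthase, was 1.0 and -1.16.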

How the results depend on the processing

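No paired analysis was possible because each group is 1 pooled sample. The counts of 225 genes higher and 200 lower in WT were recomputed under 11 alternatives. With a threshold of 2 log2 units they were 53 and 30, and with 0.6 they were 524 and 532. With at least 20 normalised reads in the highest sample, where readable, 127 genes higher in WT were left. With at least 100, where readable, the counts were 76 and 133. These counts keep the 38 genes higher and 78 lower in WT whose level could not be read. Of the readable genes alone, 89 higher in WT had at least 20, and 38 higher and 55 lower had at least 100. A pseudocount of 5 normalised reads could be added only to genes whose level was read, and the others were kept. The counts were then 126 and 126. Without the Hoxd-null sample they were 369 and 678, and without compound Hoxd-null 389 and 312. Against the mean of the mutants they were 1021 and 1698. Centring the mutants on WT, and leaving out Hoxa-null or compound Hoxa-null, kept both counts within 1.5 times. Of the 69 named genes, 57 were kept with the pseudocount. The 57 include genes such as Tgm4 and Myh7, whose level could not be read and which were not put to it. Genes that no longer met the rule included Lcn6, Dnaic2, Klrb1c, Prrt3, Chga, Cxcl5, Hoxa2, Hoxa5, Dbh, Foxi1 and Hoxc9. Depth limits the genes with under 20 normalised reads.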

Other observations

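Cholesterol and fatty acid synthesis genes had no member, but WT was below all 4 mutants by some amount in 10 of 15, with a list median of -0.62 log2 units against the mean of the mutants. Mesothelium genes were above all 4 mutants by some amount in 4 of 8, with a median of 0.82, and heat shock genes in 6 of 10, with a median of 0.29. Over all genes the shares above and below were 19.7% and 18.6%. Cartpt, a neuropeptide gene outside the rule for named genes and picked after its values were seen, was higher than in WT by 1.97 log2 units in Hoxa-null, 1.91 in compound Hoxa-null, 6.63 in compound Hoxd-null and 9.11 in Hoxd-null.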
